A study of Mus musculus with 2 samples.

Results

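Snx29, Wwox, Mad1l1, Lpp, Hivep3, Smyd3, Trappc9, Tns1, St6galnac3 and Prkce were the 10 protein-coding genes, of 11217 measured, whose gene bodies held the largest drop in base pairs of H3K36me2-marked regions between wild-type and Nsd2-deleted regulatory T (Treg) cells. They were chosen by that difference in covered base pairs, so every value below that sets the knockout against wild type is a description of the choice and was not tested. The values come from 2 libraries of spleen Treg cells on the C57BL/6 background, 1 labelled wild type (WT) and 1 labelled Nsd2 Treg conditional knock out. The labels state neither the age nor the sex of the mice, neither the Cre driver nor how many mice were pooled. With 1 library per genotype there is no replicate error, and fewer cells carrying the mark cannot be told apart from less of the mark per cell.

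H3K36me2, dimethylation of lysine 36 of histone H3, is placed by NSD-family methyltransferases such as NSD2 and by ASH1L, whereas SETD2 makes the trimethylated form over transcribed genes. The dimethyl mark typically forms broad stretches over introns and between genes and is sparse at active start sites. Treg cells are CD4 T cells that depend on Foxp3 and hold immune responses in check.

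Regions had been called per library, 54527 of them over 42.5 Mb from 17158154 wild-type tags and 39745 over 31.6 Mb from 14789700 knockout tags. A 500 bp peak needed 13 tags in wild type and 12 in the knockout, or 7.58 and 8.11 after scaling to 10000000 tags, so calling was stricter in the knockout on the scaled counts. By the approximate values of the headers, 7.17% of wild-type and 5.89% of knockout tags lay inside regions. The part of this difference in the lower covered lengths was not tested. The body of Nsd2 itself held 0 bp of wild-type and 500 bp of knockout regions, which does not show whether its exons were deleted. Of 6 T and Treg cell markers, 5 held regions in both libraries, with Ctla4 at 0 bp in both. Pooled cover was 14.2% and 16.2% for these genes, and 3.48% and 2.63% for 3 myeloid markers, of which Lyz2 held no region. Of the B cell genes Pax5 had 3803 bp and 1779 bp, Cd79a 641 bp and 1000 bp, and Ms4a1 none in either library, as did Cd8a of CD8 T cells. The CD8 T and NK list had 7.67% of its short gene bodies covered in wild type and 0% in the knockout. That wild-type cover was 1 or 2 regions in each gene that had any, and at most 1000 bp a gene. These marker levels were not tested for a part in the results below.

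The 10 gene bodies together spanned 4.93 Mb and had 455485 bp inside wild-type regions and 184610 bp inside knockout regions, that is 40.5% as much. The wild-type list had 559 regions over them (95% Poisson interval 513.6 to 607.3), the knockout list 269 (237.8 to 303.1). These intervals cover counting error only. Covered length was lower in the knockout in all 10 genes, as it was in 59.7% of all measured coding genes and 71.6% of the 781 measured genes of 200 kb and over. It was at most 67% of wild type, the fold used here, in all 10. That count was 9 by number of regions (Mad1l1 at 79.4%), 7 after division by the ratio of covered lengths in the whole lists and 3 at the common tag count per 500 bp described last. Of all measured genes 46% met that fold, as did 55.6% of those of 200 kb and over and 70.1% of the 174 that also had at least 10000 bp of wild-type cover. A knockout length of at least 150% of wild type, met by none of the 10, was found in 26.3% of all measured genes. The drop in the 10 genes, 270875 bp, was 2.49% of the difference in covered length between the whole lists. The rule separated Prkce, with a drop of 21458 bp, from the gene just outside it, Camk1d, at 19994 bp. Next came Sorcs2 at 19955 bp, Rora at 19309 bp, Dab2ip at 18745 bp and Fars2 at 18597 bp.

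**Figure D1:**
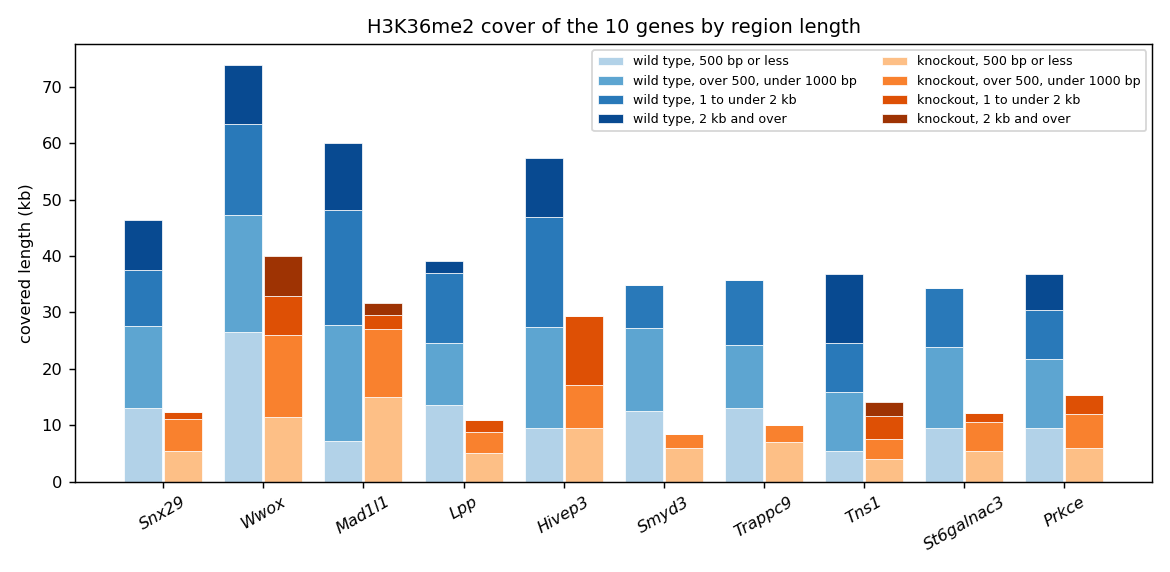
Covered length in kb (vertical axis, from 0) of each gene in wild type (blue) and knockout (orange), stacked by the length of the regions, 1 library per genotype. Every orange bar is shorter than its blue neighbour, and regions of 2 kb and over (darkest) are present in 7 genes in wild type and in 3 in the knockout.

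Start sites that could be placed lay outside regions in both libraries. RefSeq promoter windows of GRCm38.p6, from 250 bp before to 50 bp after a start, were matched for 6 of the 10 genes, with 9 windows among them, and none of the 9 touched a region of either library. Across 32619 windows of all genes, 9.07% touched a wild-type and 8.88% a knockout region. The windows at the outer starts of Snx29, Lpp and St6galnac3 are printed as examples of start sequence, mostly upstream of the gene, on which no region lay. CpG dinucleotides are in capitals, and each sequence reads 5′ to 3′ on the gene's own strand.

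Snx29, chr16:11322654-11322953, plus strand: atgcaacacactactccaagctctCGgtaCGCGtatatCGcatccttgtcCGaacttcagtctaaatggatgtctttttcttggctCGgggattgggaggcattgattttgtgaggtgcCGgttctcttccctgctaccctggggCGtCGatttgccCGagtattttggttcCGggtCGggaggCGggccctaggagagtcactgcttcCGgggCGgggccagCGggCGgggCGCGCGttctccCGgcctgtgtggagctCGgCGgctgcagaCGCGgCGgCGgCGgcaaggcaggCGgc

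Lpp, chr16:24393100-24393399, plus strand: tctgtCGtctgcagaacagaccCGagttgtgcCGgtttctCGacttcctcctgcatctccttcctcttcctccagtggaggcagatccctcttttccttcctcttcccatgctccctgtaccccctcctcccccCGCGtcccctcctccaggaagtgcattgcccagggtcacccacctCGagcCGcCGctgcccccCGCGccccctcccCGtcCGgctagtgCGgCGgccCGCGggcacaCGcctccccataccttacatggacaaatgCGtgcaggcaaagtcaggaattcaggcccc

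St6galnac3, chr3:153725084-153725383, minus strand: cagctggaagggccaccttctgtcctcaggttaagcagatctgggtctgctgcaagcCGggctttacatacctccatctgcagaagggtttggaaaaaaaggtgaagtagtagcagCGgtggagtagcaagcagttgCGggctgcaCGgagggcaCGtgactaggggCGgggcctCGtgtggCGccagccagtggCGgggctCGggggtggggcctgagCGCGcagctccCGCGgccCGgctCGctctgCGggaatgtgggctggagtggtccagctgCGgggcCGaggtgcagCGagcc

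These windows held 29, 19 and 20 CpGs (the motif CG, which reads the same on both strands), and 43.8% of all windows held at least 10. On either side, the nearest wild-type region was 2825 bp away from the Snx29 window, 804 bp from that of Lpp and 129 bp from that of St6galnac3. In the knockout those distances were 9324 bp, 1723 bp and 7701 bp. In wild type the nearest region lay upstream of all 3 windows, outside the genes. The start window of Tns1, with 37 CpGs, was 19454 bp from a wild-type and 10048 bp from a knockout region. At the Mad1l1 window at 140321503 to 140321802, with 25 CpGs, the distances were 1750 bp and 12472 bp. The internal Hivep3 window, with 11 CpGs, lay 7051 bp from a wild-type region and nearer to a knockout one, at 1277 bp. The internal windows of Snx29, Lpp and Mad1l1 held only 1, 2 and 3 CpGs. Without a genome or exon annotation in use here, regions were not split into exons, introns and UTRs.

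Among the trafficking genes, Snx29 had the largest drop of all. It encodes a sorting nexin, one of the phosphoinositide-binding proteins of endosomal sorting. Its 436235 bp body (chromosome 16, 11322861 to 11759095) had 58 wild-type regions over 46401 bp and 20 knockout regions over 12315 bp, which is 10.6% and 2.82% of its length. Of its wild-type regions, 7 had a base in a knockout region. The longest, 2335 bp at chr16:11649948-11652283 with 29.1 normalised tags, had none. Each of 10 equal bins along Snx29 was lower in the knockout, from start to end, and the last bin held the most in both libraries, 10279 bp and 2985 bp. The longest stretch without a region went from 25.2 kb in wild type to 110.4 kb in the knockout.

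Trappc9 encodes a subunit of the TRAPP complex, which tethers vesicles, and its protein is also known for a role in NF-kB signalling. The gene (chromosome 15, 72589620 to 73061238) had 49 wild-type regions over 35700 bp and 18 knockout regions over 10109 bp. Every bin had between 1740 bp and 5605 bp of wild-type cover, and no knockout region reached 1 kb. Peg13, an imprinted long non-coding RNA gene inside Trappc9, held 775 bp and 500 bp. Beyond the gene's upper end cover was not lower throughout. Chrac1 (73090412 to 73094075) had 0 bp of wild-type and 766 bp of knockout cover. Past it, Ago2, which encodes an Argonaute protein of RNA silencing (chromosome 15, 73101625 to 73184947), had 45.6% of its body inside wild-type regions and 43.8% inside knockout regions. The longest wild-type region there measured 18.6 kb and had 347.4 normalised tags, and the longest knockout region 19.2 kb and 411.4 tags.

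Both adhesion genes, Lpp and Tns1, encode proteins of focal adhesions. Lpp is a LIM-domain protein of the zyxin family. Its body (chromosome 16, 24393350 to 24992578) had 52 wild-type regions over 39086 bp and 17 knockout regions over 10971 bp. Wild-type cover was concentrated toward the start, with 11212 bp and 8096 bp in the first and second of 10 bins, and the knockout had 2508 bp and 1907 bp there. The fifth bin held none in either library, and the seventh was higher in the knockout, at 1625 bp and 2000 bp. The longest stretch without a region was 99.9 kb in wild type and 152.2 kb in the knockout.

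Lpp also hosts the microRNA gene Mir28a, whose mature arms are printed because no other gene of the 10 hosts a miRNA of the RefSeq table used (GRCm38.p6; seed, bases 2 to 8, in capitals; 5′ to 3′; plus strand).

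mmu-miR-28a-5p, chr16:24827868-24827889: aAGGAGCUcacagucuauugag

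mmu-miR-28a-3p, chr16:24827908-24827929: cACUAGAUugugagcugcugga

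No region of either library covered these arms, whose seeds differ. From the 5p arm the nearest wild-type region was 2854 bp away and the nearest knockout region 38660 bp away.

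Tns1 encodes tensin, which links integrins to actin. It was the shortest of the 10 (chromosome 1, 73910232 to 74124548), with 36 wild-type regions over 36804 bp and 17 knockout regions over 14066 bp. Cover lay toward its far end, away from the start. The last 5 bins held 27271 bp of wild-type and 11442 bp of knockout cover, the first 5 held 9533 bp and 2624 bp. Its longest wild-type region, 3904 bp at chr1:73926424-73930328 with 61.8 normalised tags, was also its longest in the knockout, there as 2364 bp at chr1:73927826-73930190 with 42.3 tags. The window of 50 kb with the largest drop held 17931 bp and 8407 bp, or 41.9% of the gene's drop, the largest such share among the 10.

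Prkce encodes a calcium-independent, diacylglycerol-activated protein kinase C. Its body (chromosome 17, 86167785 to 86657919) had 44 wild-type regions over 36874 bp and 24 knockout regions over 15416 bp. Cover sat most in bins 3 and 4 from the lower coordinate in both libraries, with 7310 bp and 7974 bp for wild type and 4125 bp and 3397 bp for the knockout. Its longest wild-type region, 3429 bp at chr17:86435916-86439345, kept 1428 bp inside knockout regions. The longest empty stretch was 58.1 kb in wild type and 135.6 kb in the knockout. Among the 6 other measured protein kinase C genes, 4 were lower and 2 higher in the knockout. The values were 62406 bp and 75399 bp for Prkch, 23177 bp and 10619 bp for Prkcb and 45330 bp and 38760 bp for Prkca.

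Hivep3, Smyd3 and Mad1l1 encode a transcription factor, a methyltransferase and a spindle checkpoint protein. Hivep3 is a large zinc finger transcription factor. It had 63 wild-type regions over 57369 bp and 38 knockout regions over 29440 bp (chromosome 4, 119733759 to 120138045). The sixth bin was the densest of any of the 10 genes, with 15595 bp inside wild-type and 10383 bp inside knockout regions, or 38.6% and 25.7% of the bin. A knockout region touched 38.1% of its wild-type regions (exact binomial 95% interval 26.1 to 51.2). Its paralogues Hivep2 and Hivep1 had 32252 bp and 11307 bp of wild-type cover, and 37462 bp and 7764 bp of knockout cover.

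Smyd3 encodes a SET- and MYND-domain lysine methyltransferase. It had the smallest knockout cover of the 10 (chromosome 1, 178951960 to 179518053), with 50 wild-type regions over 34920 bp against 16 knockout regions over 8410 bp, 6.17% and 1.49% of its length. All wild-type regions were under 2 kb, and all knockout regions under 1 kb, the longest 772 bp. A knockout region touched 6 of the 50 wild-type regions. Wild-type cover was densest in the second bin from the lower coordinate, at 7891 bp against 1500 bp, and knockout cover in the first, at 4682 bp and 2133 bp, and 3 bins with wild-type cover held none in the knockout.

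Mad1l1 encodes MAD1, which recruits MAD2 to kinetochores in the spindle checkpoint. It had the largest covered share of the 10, 19.2% by wild-type and 10.1% by knockout regions (chromosome 5, 140008689 to 140321608; 60086 bp and 31680 bp). Here the number of regions differed less than their length, 63 and 50 regions with mean lengths of 954 bp and 634 bp. Of 500 bp or less there were 15 wild-type and 30 knockout regions, and of 1 kb and over 21 and 3. The second and last bins from the start were higher in the knockout, the last at 5370 bp and 6493 bp. Its longest empty stretch was shorter in the knockout, at 34972 bp in wild type against 23801 bp.

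Wwox and St6galnac3 encode enzymes. Wwox, a WW-domain oxidoreductase known as a tumour suppressor, spans a chromosomal fragile site and was the longest of the 10 (chromosome 8, 114439635 to 115352712). It had 97 wild-type regions over 73889 bp and 50 knockout regions over 39988 bp. The difference was uneven from end to end. In the 5 bins at lower coordinates 30454 bp of wild-type cover stood against 8020 bp, or 26.3%, and in the 5 at higher coordinates 43435 bp against 31968 bp, or 73.6%. In the fifth bin cover was 11021 bp and 1923 bp, and in the ninth, the densest in both libraries, 15290 bp and 13410 bp. Wwox was also the 1 gene whose mean region length was not shorter in the knockout, at 762 bp and 800 bp.

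St6galnac3 encodes a sialyltransferase that adds sialic acid to N-acetylgalactosamine on glycoproteins and glycolipids. It had 47 wild-type regions over 34356 bp and 19 knockout regions over 12215 bp (chromosome 3, 153198274 to 153725133). The first and last 5 bins were alike, at 35.6% and 35.4% of wild type, and the first bin from the start was the densest in both libraries, with 7886 bp and 3332 bp. Its longest knockout region, 1683 bp at chr3:153689156-153690839 with 22.3 normalised tags, shared no base with a wild-type region. Of its measured paralogues, 2 were lower and 2 higher in the knockout, with St6galnac5 at 14987 bp and 8674 bp and St6galnac6 at 0 bp and 2595 bp.

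**Figure D2:**
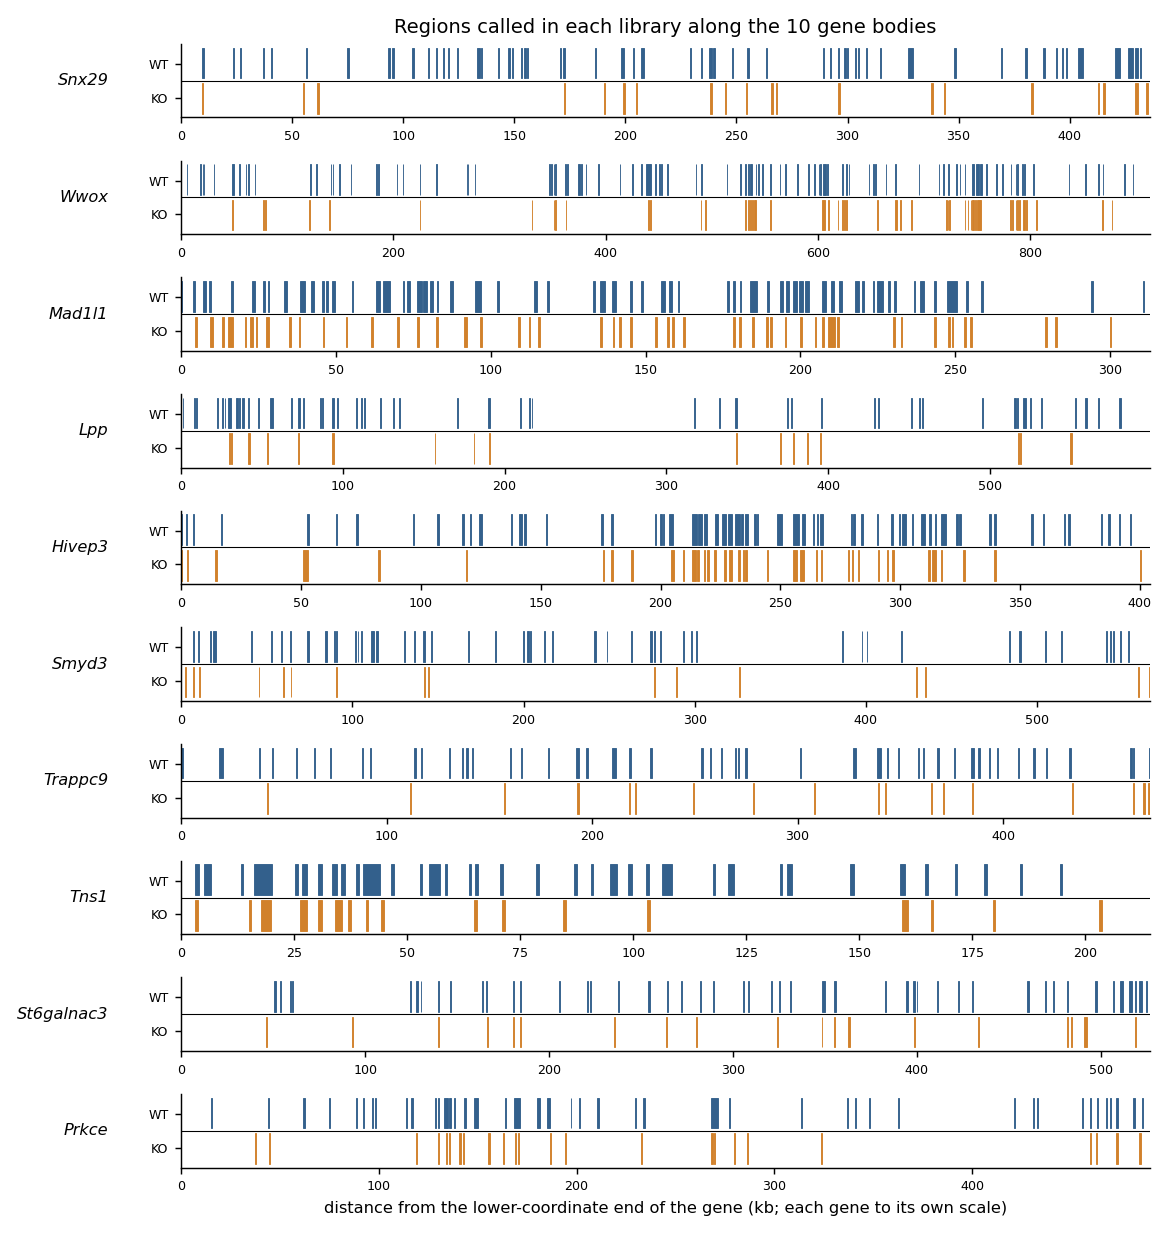
Regions called in wild type (blue, upper row) and knockout (orange, lower row) along each gene body, by distance in kb from the gene's lower-coordinate end, each gene to its own scale. Wild-type regions outnumber knockout regions in all 10 genes, and the upper end of Wwox and the middle of Hivep3 keep dense clusters in both.

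The difference lay in number and in length of regions, with the longer ones furthest apart. Over the 10 genes, there were 240 wild-type and 150 knockout regions of 500 bp or less, or 62.5%. The knockout had 44.5% as many regions over 500 bp and under 1 kb (200 and 89), 26.6% as many of 1 to under 2 kb (94 and 25), and of 2 kb and over there were 25 in wild type against 5. In the whole lists the same classes stood at 75.1%, 68.8%, 71.1% and 82.3%. Mean region length was shorter in the knockout in 9 of the 10 genes. Normalised tags summed over the regions came to 7058 and 3069, or 43.5%. With regions of 1000 bp and over alone, the 10 genes pooled to 24.4% (187986 bp and 45863 bp), and Smyd3 and Trappc9 had none in the knockout. Tags per covered kb ran from 15.0 to 15.8 in wild type and from 15.5 to 17.4 in the knockout, higher there in 9 genes, beside its higher scaled threshold.

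Over all lengths, the share of wild-type regions with a counterpart was near that of other long genes. Within each length class the value was lower, but in the classes under 1000 bp not beyond the counting interval. A base in a knockout region was found for 132 of 559, or 23.6% (exact binomial 95% interval 20.2 to 27.4), against 22.9% (21.95 to 23.9) of 7200 regions in the other genes of 200 kb and over and 30.6% of 33936 in all measured coding genes. At 500 bp or less the share was 9.17% (5.8 to 13.5), against 12.2% in the other long genes. Over 500 and under 1000 bp it was 24.5% (18.7 to 31.1) against 27.4%. The intervals of the 10 genes include the values of the other long genes in these classes. At 1000 bp and over the share was 51.3% (41.9 to 60.5) against 62.1% (58.7 to 65.4). In the other direction, 138 of 269 knockout regions, or 51.3% (45.2 to 57.4), touched a wild-type region, against 36.9% (35.5 to 38.4) in the other long genes and 41.4% in all measured coding genes. How densely the other library covers the genes, which the rule used, can enter these shares, and its part was not tested. Knockout regions covered 3.74% of the 10 gene bodies pooled and 0.97% of the other long genes. Wild-type regions covered 9.23% and 1.58%. Wild-type regions with a counterpart had a median length of 951 bp and 15.45 normalised tags, and those without one 500 bp and 8.74 tags. In base pairs, 75604 bp were covered in both libraries, 379881 bp in wild type only and 109006 bp in the knockout only. The base pairs in both made up 16.6% of the wild-type and 41.0% of the knockout cover.

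Knockout cover was lower in most bins of these genes, which are the base pairs that the rule read. The same share was not taken for other long genes. Of the 100 bins, 99 held a region in at least 1 library, 93 of them were lower and 5 higher in the knockout, and 12 with wild-type cover had none in the knockout. No single bin carried more than 31.0% of its gene's drop, the share of the first Lpp bin. Where strand was given, for 6 genes, the knockout stood between 26.0% and 66.1% of wild type in each pooled bin, with no steady order from start to end. For Wwox, Smyd3, Trappc9 and Prkce, counted from the lower coordinate, the first 5 pooled bins were at 16.1% to 35.4% and the last 5 at 49.4% to 59.2%. Gene by gene, the last 5 bins stood at 73.6% in Wwox and at 35.9%, 37.3% and 43.9% in Smyd3, Trappc9 and Prkce, all below the pooled range. Within these 4 genes the first and last 5 bins were closest in Prkce, at 40.5% and 43.9%.

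**Figure D3:**
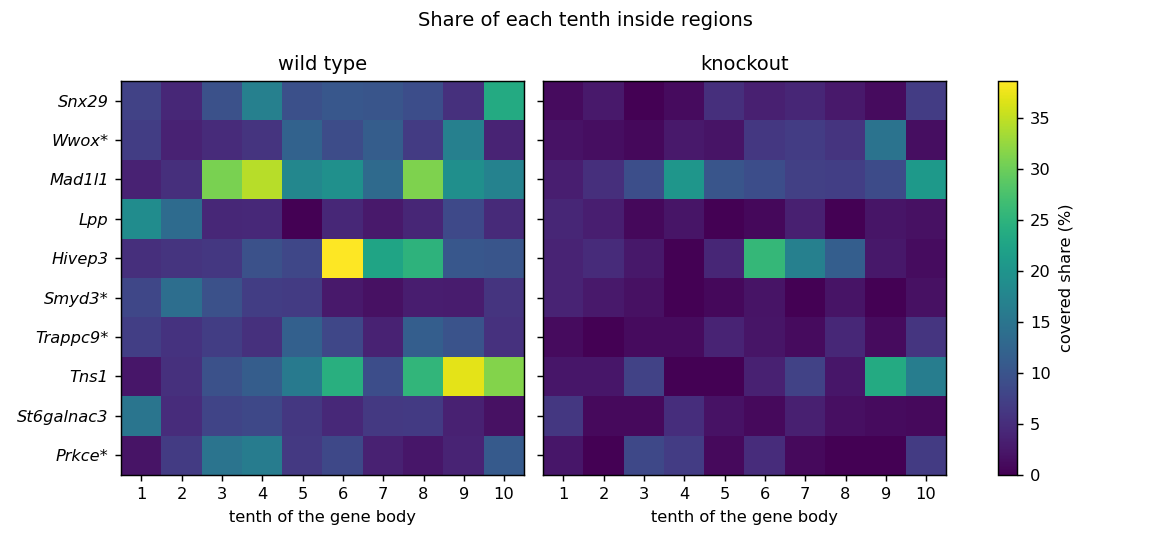
Percent of each of 10 equal bins inside regions (colour) for wild type (left) and knockout (right), from the start of the gene or, for names with an asterisk, from the lower coordinate. The brightest wild-type bins, in Hivep3, Tns1 and Mad1l1, are dimmer in the knockout panel, and 93 of the 99 covered bins are lower there.

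Among long genes, the 10 stood high in wild-type cover, which a rule on the size of a drop favours, and less far out in the percentage left. All 10 ranked among the 29 highest of the 781 genes of 200 kb and over in wild-type covered length. Their median wild-type share was 7.83%, against 0.91% in the other 771, with 10.5 regions per 100 kb against 1.48. In the knockout the medians were 2.98% and 0.45%. By the knockout percentage, however, they held ranks from 158 to 364, counted from the lowest, among the 713 long genes with a wild-type region, Smyd3 at 24.1% and Wwox at 54.1%. The other long genes pooled to 61.5%, with 5131945 bp and 3158284 bp. Of 42 other coding genes with at least 34356 bp of wild-type cover, the lowest value among the 10, 37 were lower in the knockout, 10 met the fold, and their percentages ran from 50.3% to 170.4% with a median of 83.9%. The rule left these 42 only drops smaller than that of Prkce, so the difference in percentages follows in part from the choice.

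Long genes also went the other way. Inpp4b, a phosphoinositide phosphatase gene of 792047 bp, had 43 wild-type regions over 40375 bp and 72 knockout regions over 68809 bp, the largest increase in covered length of all measured genes. The next among genes of 200 kb and over were Opcml, listed at 0 bp and 7153 bp, and Dock2, a guanine nucleotide exchange factor of lymphocyte migration, at 11219 bp and 16383 bp. Of the 781 long genes, 559 were lower and 195 higher in the knockout. Among 17 other measured genes of a list of very long genes and fragile sites, 11 were lower and 5 higher, with a median difference of -678 bp beside -1000 bp for all 781. Of these 17, 7 were at most 67% of wild type, beside 55.6% of the 781. Another 4 were at 150% and over, beside 26.3% of all measured genes. The largest differences of this list were all falls. Fhit, another fragile site gene, had 23656 bp and 7624 bp, Exoc4, a subunit of the exocyst, 14202 bp and 2127 bp, and Magi2 9286 bp and 3945 bp.

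**Figure D4:**
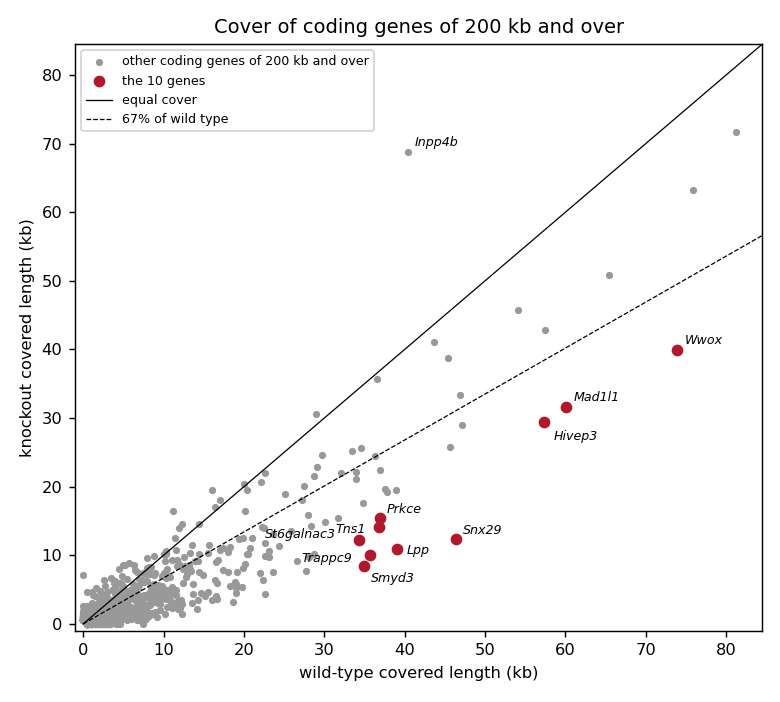
Covered length in kb in wild type (horizontal axis) and knockout (vertical axis) of the 781 measured coding genes of 200 kb and over, 1 point per gene, with the 10 genes in red. The red points lie below the dashed line at 67% of wild type, at wild-type values of 34.4 kb and more, and Inpp4b lies above the line of equal cover.

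Families of the 10 genes were mixed. Of 26 other measured sorting nexin genes, 18 were lower and 8 higher in the knockout, and 16 met the fold, beside 46% of all measured genes. Their median difference was -500 bp, beside -361 bp for all measured genes. Snx18 had 10266 bp and 5083 bp, Snx30 4759 bp and 1351 bp, and Snx9 4047 bp and 1000 bp. All 3 other tensin genes were lower and none met the fold, with Tns3 at 10246 bp and 7476 bp. Of the 5 other measured TRAPP genes, 3 were lower and 2 higher, and Trappc10 had 1282 bp and 3675 bp. Of the 3 other Smyd genes, 1 was lower and 2 higher, with Smyd1 at 0 bp and 677 bp, Smyd2 at 6216 bp and 6643 bp and Smyd4 at 881 bp and 619 bp. The zyxin family had 1 lower and 2 higher, with Trip6 at 0 bp and 931 bp, Limd1 at 3212 bp and 2570 bp and Zyx at 1299 bp and 1340 bp. Among spindle checkpoint genes Bub1b alone was measured besides Mad1l1, at 4208 bp and 3449 bp.

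The 100 kb on either side of each gene, base pairs the rule did not read but from the same libraries, held 97105 bp of wild-type and 65807 bp of knockout cover, or 67.8% (95% interval 50.3 to 90.9, from the numbers of regions). This was nearer to the 61.5% of the other long genes than to the 40.5% of the bodies. Flank cover was lower in the knockout for 9 of the 10 genes and higher for Hivep3, at 6127 bp and 7348 bp. Beside Trappc9, where Ago2 lies, it was 23912 bp and 23713 bp. The flanks of Prkce went further than its body, with 9409 bp and 1500 bp, or 15.9% against 41.8%. By side, 14 of 20 flanks were lower and 3 higher in the knockout.

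**Figure D5:**
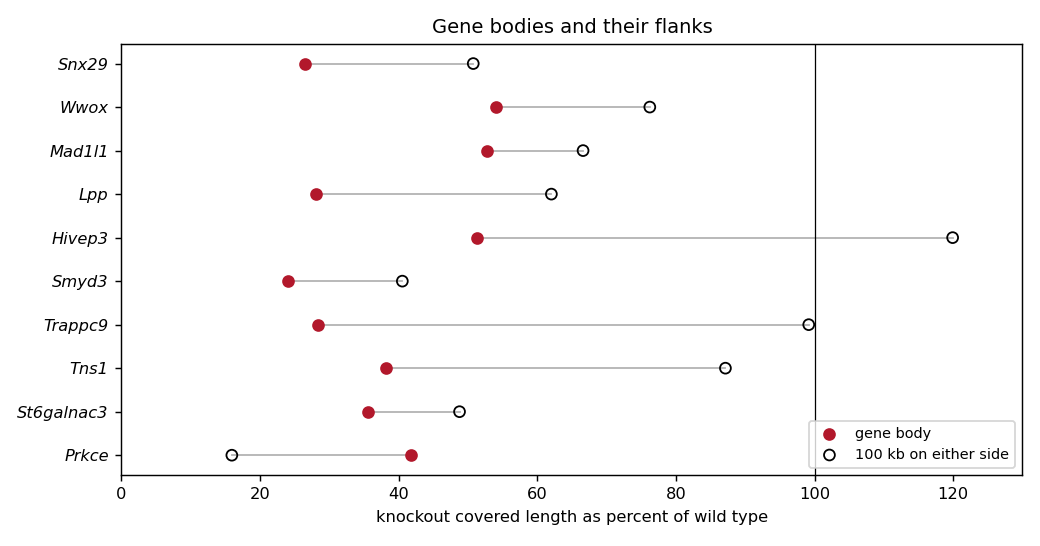
Knockout covered length as a percent of wild type (horizontal axis) for each gene body (filled) and for its 100 kb flanks summed (open). The open point lies to the right of the filled one in 9 genes and to its left in Prkce, and for Hivep3 it lies past 100%.

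A stricter setting turned the direction in some genes. When regions of both libraries needed at least 8.11 normalised tags per 500 bp of their length, which is the knockout's own calling threshold, 17694 of the 54527 wild-type and 25041 of the 39745 knockout regions were left. By construction this removed more wild-type than knockout regions. The 10 genes then pooled to 88.1% of wild type, beside 114.9% for the other long genes and 134.3% for all measured genes. With the common tag count asked of 500 bp regions only, the 10 genes pooled to 42.8%, from 24.8% to 65.9% gene by gene. With it asked of all regions, single genes differed more. Tns1, Prkce, Hivep3 and Wwox stood at 130.9%, 202.1%, 129.9% and 100.5%, and Smyd3, Mad1l1 and Snx29 at 81.3%, 84.0% and 97.6%. Trappc9, Lpp and St6galnac3 stood at 43.4%, 45.5% and 45.8%, where without this setting they were at 28.3%, 28.1% and 35.6%.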

How the data were processed

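Per the file headers, the authors called regions with HOMER findPeaks in histone style on each library alone, stitching 500 bp peaks, without a control library in the command. Tools listed in the submitters' processing notes were HOMER, Bowtie2, Trim Galore, deepTools and Picard, with no version, and the build mm10. Per the labels' protocols, an in situ ChIP kit was used, and no source used here names the antibody or a spike-in. The signal is the authors' normalised tag count per region, scaled to 10000000 tags. With no spike-in named, this scaling cannot show the absolute size of a genome-wide change in the mark. Covered lengths carry the difference between the whole lists, except after division by the ratio of covered lengths. The score deposited by the authors only ranked regions in an alternative, and the deposited clonal fold ratio was not used.

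Covered length is the base pairs of a RefSeq gene body (GRCm38.p6, protein-coding, chromosomes 1 to 19 and X) inside regions, with lengths as end minus start. Measured genes had 2000 bp or more and a region in either library. Overlap needed 1 bp. Named were the 10 genes, the 5 that followed by drop, the 3 long genes with the largest increase, and at most 3 genes per family list, by largest difference. Ago2, Chrac1, Peg13, the miRNA and the start windows were chosen after their values were seen. The genes and lists were chosen with earlier results of these data known. Scripts ran on Python 3.11.15 with pandas 2.3.3, numpy 2.4.6, matplotlib 3.10.9 and scipy 1.17.1. As a check of the code, most regions of 20 of 307 long genes were removed from a copy of the wild-type list. All 20 and none of 286 untouched genes met the fold. The removal largely fixes this outcome, so it gives no measure of noise between libraries. Tags are PCR reads without molecular identifiers, so intervals (Poisson or Clopper-Pearson) cover counting error only. Some marker genes are not reported here.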

Additional observations from a re-analysis of the deposited data

How the results depend on the processing

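The knockout percentage of the 10 genes together, 40.5%, became 24.4% with regions of 1000 bp and over, 32.8% in the 50% of regions with the most tags, 88.1% with all regions at the common tag count per 500 bp, 54.5% after division by the ratio of covered lengths and 48.1% by number of regions. Under the other 5 settings (higher-scoring 50%, 500 bp regions at the common tag count, merging across 1000 bp, 5 kb flanks, normalised tags) it stayed between 39.5% and 43.5%. Gene by gene, 84 of 100 values over 10 settings stayed within the counting interval of the value reported, 12 moved outside it and 4 turned, at Tns1 (130.9%), Prkce (202.1%), Hivep3 (129.9%) and Wwox (100.5%), all at the common tag count per 500 bp. That setting removed more wild-type than knockout regions by construction. All 5 pooled settings that moved kept the direction. Of the 10 genes, 7 were at most 67% of wild type after division by the ratio of covered lengths (Hivep3 68.9%, Mad1l1 70.8%, Wwox 72.7%), 9 by number of regions and 3 at the common tag count per 500 bp. All measured genes at most 67% of wild type numbered 5157, and 1718 with regions of 1000 bp and over, where 3497 genes were left, and 2294 at the common tag count per 500 bp. Those at 150% and over numbered 2953, 1003 and 4408. After division by the ratio of covered lengths the lower and higher genes numbered 4181 and 3767, and with 500 bp regions at the common tag count 3708 and 3434. Covered bins lower in the knockout, 93.9% of 99, were 100% with 5 bins a gene and 88.5% of 191 with 20. Shared wild-type regions were 13.2% when 50% of the region had to overlap and 51.3% among regions of 1000 bp and over. In the other genes of 200 kb and over these shares were 16.8% and 62.1%. The other long genes pooled to 65.5% with a minimum of 100 kb. Flanks of 50 and 200 kb gave 71.2% and 64.1%. No paired analysis was possible because each genotype has 1 library and no result comes from a test.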
